A study of Mus musculus with 7 samples.

Results

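Immune, endothelial, duct, and mesenchymal cells are the neighbours of alpha, beta, and delta cells in the pancreas, and 10 of their marker genes were followed through ATAC-Seq peak lists of sorted islet cells. The genes were Ptprc, Cd68, and Csf1r (immune), Pecam1, Cdh5, and Kdr (endothelial), Krt19 and Cftr (duct), and Col1a1 and Pdgfrb (mesenchymal), or 10 of 21938 protein-coding genes. They were named for the lineage that each marks, and a peak was assigned to a gene when it overlapped the gene body or the 10 kb on either side of it. In ATAC-Seq a transposase, Tn5, inserts sequencing adapters into accessible chromatin. The 7 libraries, 2 alpha, 3 beta, and 2 delta, are labelled as biological replicates and come from healthy mice, pooled by sex, that carry mIns1-H2b-mCherry and Rosa-LSL-YFP together with either Gcg-Cre or Sst-Cre. All 3 groups therefore share both reporters. Beta cells were sorted by mCherry under an Ins1 promoter, alpha cells by YFP switched on by Gcg-Cre, and delta cells by YFP switched on by Sst-Cre, and Cre-activated YFP also stays on in cells that have since changed identity. Cells with both reporters were left out by the sorting gates. The labels give no age. The question here was whether open chromatin at genes of other lineages was called in the sorted libraries, which bears on the purity of the sort.

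Ptprc encodes CD45, the phosphatase found on nearly all white blood cells, and Cd68 and Csf1r mark macrophages, which reside in islets. Pecam1, Cdh5, and Kdr encode adhesion proteins and a VEGF receptor of the endothelial cells that line the dense islet capillaries. Krt19 and Cftr encode a keratin and a chloride channel of pancreatic ducts, the epithelium next to which endocrine cells arise. Col1a1 and Pdgfrb mark collagen-producing cells and pericytes. An active gene usually has open chromatin at its transcription start site (TSS), whereas peaks elsewhere in a gene body may belong to enhancers of any nearby gene.

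The deposited lists differed in length, from 75860 distinct intervals in delta 2 to 518503 in beta 1, and each reached down to a −log10 p of 2.01. The q-value is the p-value adjusted for the many positions tested. Only 5.0% of the beta 1 peaks reached a −log10 q of at least 2, against 29.8% to 54.9% of the others, so each count is given with and without this threshold. The 3 lists labelled beta bear file names of a different cell type, and the beta values rest on the labels. The lists come from pools of cells, in which a site open in few cells and a site weakly open in many cannot be told apart.

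The regions that recur between libraries lie mostly away from the starts of the marker genes, and their sequences are shown first, since the results below turn on them. For the genes with a region called in at least 2 libraries, Csf1r and Pdgfrb left out, the region called in the most libraries is given, in the direction of the gene and centred on the summit of its strongest peak (GRCm38). Kdr had no such region. Capitals mark matches to 1 of 6 short motifs searched on both strands, as described after the sequences. The Cd68 stretch is the DNA just upstream of the neighbouring gene Eif4a1. It was cut to 223 bases to leave out annotated untranslated bases and is not centred on the summit. The Cftr promoter (RefSeq, GRCm38.p6) runs from 250 bases before the start to 30 bases after it.
Ptprc, intron (chr1:138136464-138136763, minus strand): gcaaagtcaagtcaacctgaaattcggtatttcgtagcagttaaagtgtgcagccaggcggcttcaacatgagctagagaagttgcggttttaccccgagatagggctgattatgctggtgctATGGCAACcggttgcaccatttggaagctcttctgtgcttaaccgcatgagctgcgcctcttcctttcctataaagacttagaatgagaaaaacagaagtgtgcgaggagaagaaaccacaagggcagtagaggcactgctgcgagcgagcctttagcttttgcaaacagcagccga
Cd68, Eif4a1 start (chr11:69672424-69672646, minus strand): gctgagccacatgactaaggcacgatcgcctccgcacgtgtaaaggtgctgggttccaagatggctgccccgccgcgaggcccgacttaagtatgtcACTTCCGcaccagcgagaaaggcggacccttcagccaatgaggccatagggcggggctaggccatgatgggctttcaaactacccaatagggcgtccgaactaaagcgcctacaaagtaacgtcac
Pecam1, intron (chr11:106674674-106674973, minus strand): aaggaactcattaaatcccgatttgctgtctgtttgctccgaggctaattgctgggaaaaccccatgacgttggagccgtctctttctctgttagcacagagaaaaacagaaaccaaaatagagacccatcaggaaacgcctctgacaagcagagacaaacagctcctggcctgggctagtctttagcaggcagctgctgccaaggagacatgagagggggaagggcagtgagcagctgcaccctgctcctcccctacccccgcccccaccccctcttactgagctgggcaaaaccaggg
Cdh5, upstream (chr8:104091530-104091829, plus strand): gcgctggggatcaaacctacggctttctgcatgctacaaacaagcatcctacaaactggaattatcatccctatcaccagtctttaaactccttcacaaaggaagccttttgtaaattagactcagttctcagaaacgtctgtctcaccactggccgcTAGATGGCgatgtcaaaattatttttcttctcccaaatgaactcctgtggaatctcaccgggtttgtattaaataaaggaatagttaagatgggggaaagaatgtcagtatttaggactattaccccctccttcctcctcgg
Krt19, upstream (chr11:100150149-100150448, minus strand): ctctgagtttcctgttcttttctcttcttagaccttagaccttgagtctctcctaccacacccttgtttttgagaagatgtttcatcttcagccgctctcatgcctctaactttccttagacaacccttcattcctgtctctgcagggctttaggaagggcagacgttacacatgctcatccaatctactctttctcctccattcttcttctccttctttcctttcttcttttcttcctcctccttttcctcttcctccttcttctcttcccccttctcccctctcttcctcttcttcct
Cftr, intron (chr6:18271042-18271341, plus strand): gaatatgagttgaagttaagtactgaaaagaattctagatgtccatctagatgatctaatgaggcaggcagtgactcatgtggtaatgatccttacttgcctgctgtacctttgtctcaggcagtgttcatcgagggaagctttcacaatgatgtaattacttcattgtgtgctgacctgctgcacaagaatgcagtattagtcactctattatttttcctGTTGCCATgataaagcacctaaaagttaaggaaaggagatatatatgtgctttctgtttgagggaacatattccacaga
Cftr promoter (chr6:18170437-18170716, plus strand): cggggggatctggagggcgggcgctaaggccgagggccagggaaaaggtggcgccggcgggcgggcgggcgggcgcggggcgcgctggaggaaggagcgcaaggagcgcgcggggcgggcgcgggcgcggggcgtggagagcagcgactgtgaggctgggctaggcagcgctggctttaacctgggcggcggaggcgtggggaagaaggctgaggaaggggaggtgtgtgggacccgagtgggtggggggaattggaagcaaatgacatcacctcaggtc
Col1a1, upstream (chr11:94928783-94929082, plus strand): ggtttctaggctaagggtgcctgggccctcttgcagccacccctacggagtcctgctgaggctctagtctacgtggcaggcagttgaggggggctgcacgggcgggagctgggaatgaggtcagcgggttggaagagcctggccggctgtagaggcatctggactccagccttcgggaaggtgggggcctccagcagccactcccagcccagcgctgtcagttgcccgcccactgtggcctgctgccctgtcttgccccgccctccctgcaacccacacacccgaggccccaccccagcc

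The motifs were those of CTCF (TAGATGGC, 1 spelling of its core), RFX factors (the half-site GTTGCCAT), forkhead factors (TGTTTAC), NEUROD factors (CAGATGG), ETS factors (CGGAAGT), and PU.1 (GAGGAAGT), where the PU.1 letters do not contain the ETS letters. Stricter spellings had matched none of the sequences, and the CTCF, RFX, and ETS letters were replaced by shorter ones after the sequences had been read, so the matches are a description only. The Cdh5 region held the CTCF letters, found in 1.06% of the regions called in all 7 libraries. The Ptprc and Cftr intron regions each held the RFX half-site, found in 1.59% of these regions. The ETS letters upstream of Eif4a1 occurred in 7.6% of them. The other 4 sequences held none of the 6 motifs.

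To ask whether the marker genes were open at their own starts, a TSS peak was defined as one that overlaps the 1 kb on either side of the annotated 5′ end. Ptprc, Cdh5, and Krt19 had no TSS peak in any of the 7 libraries. This was so at 17.3% of all protein-coding genes. With beta 1 left out, Cd68 joined them, and 4 of the 10 genes against 25.6% of all genes had no TSS peak. In at least 2 replicates, a TSS peak was found in alpha cells at 3 of the 10 genes (Cftr, Col1a1, and Pdgfrb), where the share of all protein-coding genes was 56.8%. In beta cells it was found at 1 of 10 (Cftr) against 56.1% of all genes, and in delta cells at 2 of 10 (Cftr and Pdgfrb) against 54.1%. The delta count rested on delta 2, and with the list of delta 1 alone it was 5, with Csf1r, Kdr, and Col1a1 added. The median number of libraries with a TSS peak was 1 over the 10 genes and 6 over all protein-coding genes.

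Most of these TSS peaks were weak. At a −log10 q of at least 2, none of the 10 genes was open at its start in both alpha replicates (51.5% of all genes) or in at least 2 beta replicates (41.4%), and Cftr alone had one in both delta replicates (48.4%). No library held such a peak at 7 of the 10 genes, compared with 38.1% of all genes. It was called in exactly 1 library at 2 genes (Kdr and Pdgfrb), compared with 5.22%, and in all 7 libraries at 0, compared with 31.1%. The 4 that were called fell in delta libraries, at Kdr and Cftr in delta 1 and at Cftr and Pdgfrb in delta 2. Over all protein-coding genes, 53.3% and 50.8% had such a TSS peak in delta 1 and delta 2 and 53.7% and 56.0% in alpha 1 and alpha 2. The beta libraries had 38.0%, 39.3%, and 47.7%. Whether the 4 calls differ from these shares between cell types was not tested.

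**Figure D1:**
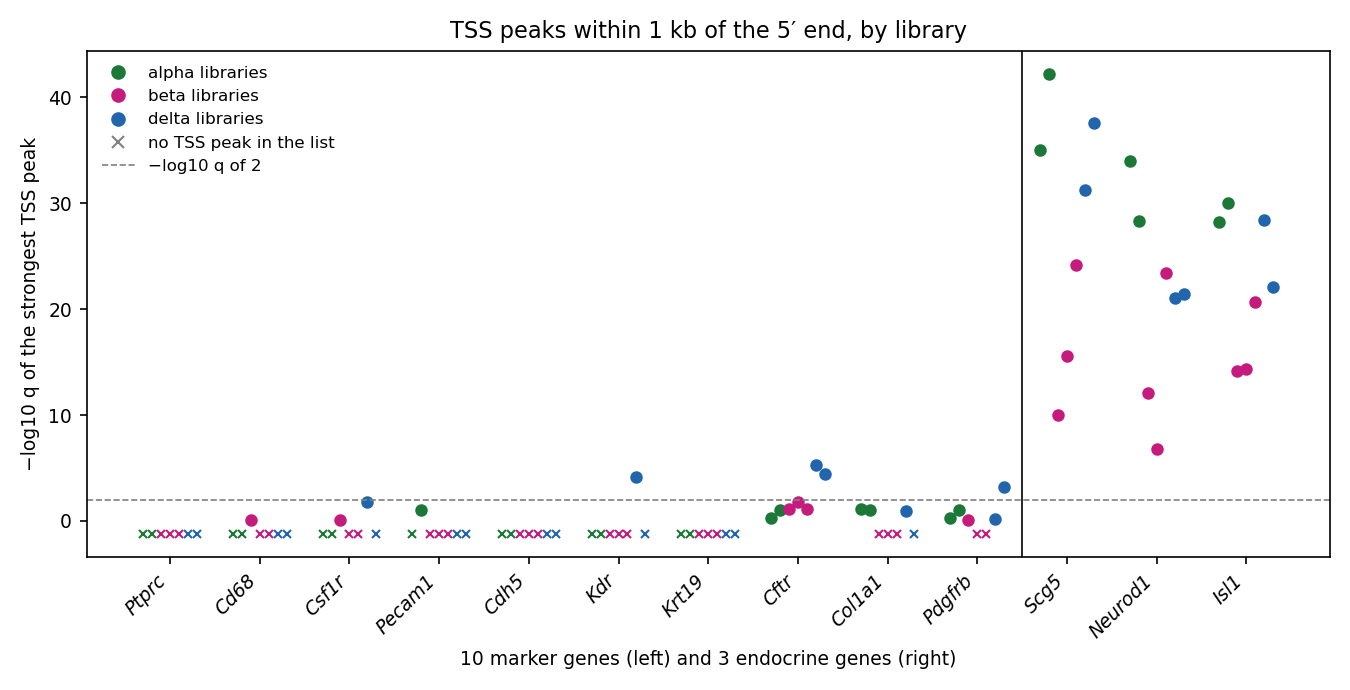
Strength of the strongest TSS peak (−log10 q, vertical axis) of each of the 10 marker genes and of the endocrine genes Scg5, Neurod1, and Isl1, with 1 point for each of the 7 libraries, coloured by cell type; crosses mark libraries with no TSS peak in the list. The marker genes pass the dashed line at 2 only in delta libraries and reach 5.32 at most, while the lowest point of the 3 endocrine genes, which were chosen as those of highest lowest rank in their list, is 6.83.

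Ptprc (ENSMUSG00000026395.16, chromosome 1, 138062861 to 138175708, minus strand) had 7 and 6 peaks in its gene body and flanks in the alpha libraries, 32, 5, and 2 in beta 1, 2, and 3, and 12 and 4 in the delta libraries. The 3 cell types overlapped, and beta 1 stood highest. With the q threshold, every library had 2 such peaks except delta 1, which had 3. A region 39.1 kb inside the gene, in an intron, was called in all 7 libraries, and its −log10 q was 4.34 and 6.45 in the alpha, 4.62, 10.4, and 5.19 in the beta, and 16.4 and 18.7 in the delta libraries. Both delta values lay above all others, an order that was not tested and not compared with other regions of the genome. The fold enrichment over the local background followed the same order at its top, with 10.7 and 11.9 in the delta libraries and 5.15 to 8.70 in the other 5. By percentile within each list, the share of its peaks with a −log10 p no higher, the delta libraries did not lead. The percentile was 78.4 and 80.8 in the alpha, 97.8, 94.5, and 84.9 in the beta, and 93.4 and 91.8 in the delta libraries. In the long list of beta 1 a peak with a −log10 q of 0.0774 can already stand at 84.6. A high percentile there does not mean a strong peak. A second intronic region at 89.7 kb was called in 6 libraries, with beta 3 as the exception. The 12 annotated transcript starts of Ptprc had weak peaks or none. Those 0.402 to 0.519 kb downstream of the 5′ end had a peak in delta 1 alone, with a −log10 q of 0.951. The start at 55.0 kb had one in alpha 2 and beta 1, that at 59.3 kb in delta 2, and that at 60.2 kb in beta 1 and beta 2, with a −log10 q of 1.02, 0.795, and 1.71 at most.

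Cd68 (ENSMUSG00000018774.13, chromosome 11, 69664213 to 69666153, minus strand) lies in a gene-dense stretch and had 3 window peaks in each of 5 libraries, 6 in beta 1, and 2 in beta 2. The groups overlapped. A peak at its own start was listed in beta 1 alone, with a −log10 q of 0.0774. The strong peaks of the window belonged to the starts of other genes. The region at the start of Eif4a1, a translation initiation factor gene that begins 6.27 kb upstream, was called in all 7 libraries with a −log10 q of 5.26 to 27.4. The start of Mpdu1, a gene of glycan synthesis that begins 3.51 kb downstream of the start of Cd68, was also called in all 7 libraries. The peak at Mpdu1 was weaker, with a −log10 q of 0.0774 to 4.19, and reached 2 in 3 libraries. The miRNA gene Mir1934 lies beside Mpdu1.

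Csf1r (ENSMUSG00000024621.16, chromosome 18, plus strand), the receptor for the macrophage growth factor CSF1, had 4 and 3 window peaks in alpha, 12, 1, and 4 in beta, and 6 and 4 in delta libraries. The cell types overlapped again. Its 5′ end had weak peaks in beta 1 and delta 1, with a −log10 q of 0.0774 and 1.75. The other annotated starts, 4.97 to 5.28 kb downstream, had a peak in delta 2 alone, with a −log10 q of 1.93. A region 4.04 kb upstream of the 5′ end was called in all 7 libraries. It was weakest in alpha 1 and beta 3, with a −log10 q of 1.01 and 1.43, and strongest in the delta libraries, with 14.2 and 11.8. This order was not tested and not compared with other regions. By percentile within each list beta 1 stood highest, at 95.7 against 92.4 and 85.6 in the delta libraries. The percentiles of beta 1 run high, as a −log10 q of 0.0774 can reach 84.6 there. A further region 2.47 kb past the end of the gene was called in 6 libraries, in each with a −log10 q of at least 5.52. Beta 2 was the library without it.

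**Figure D2:**
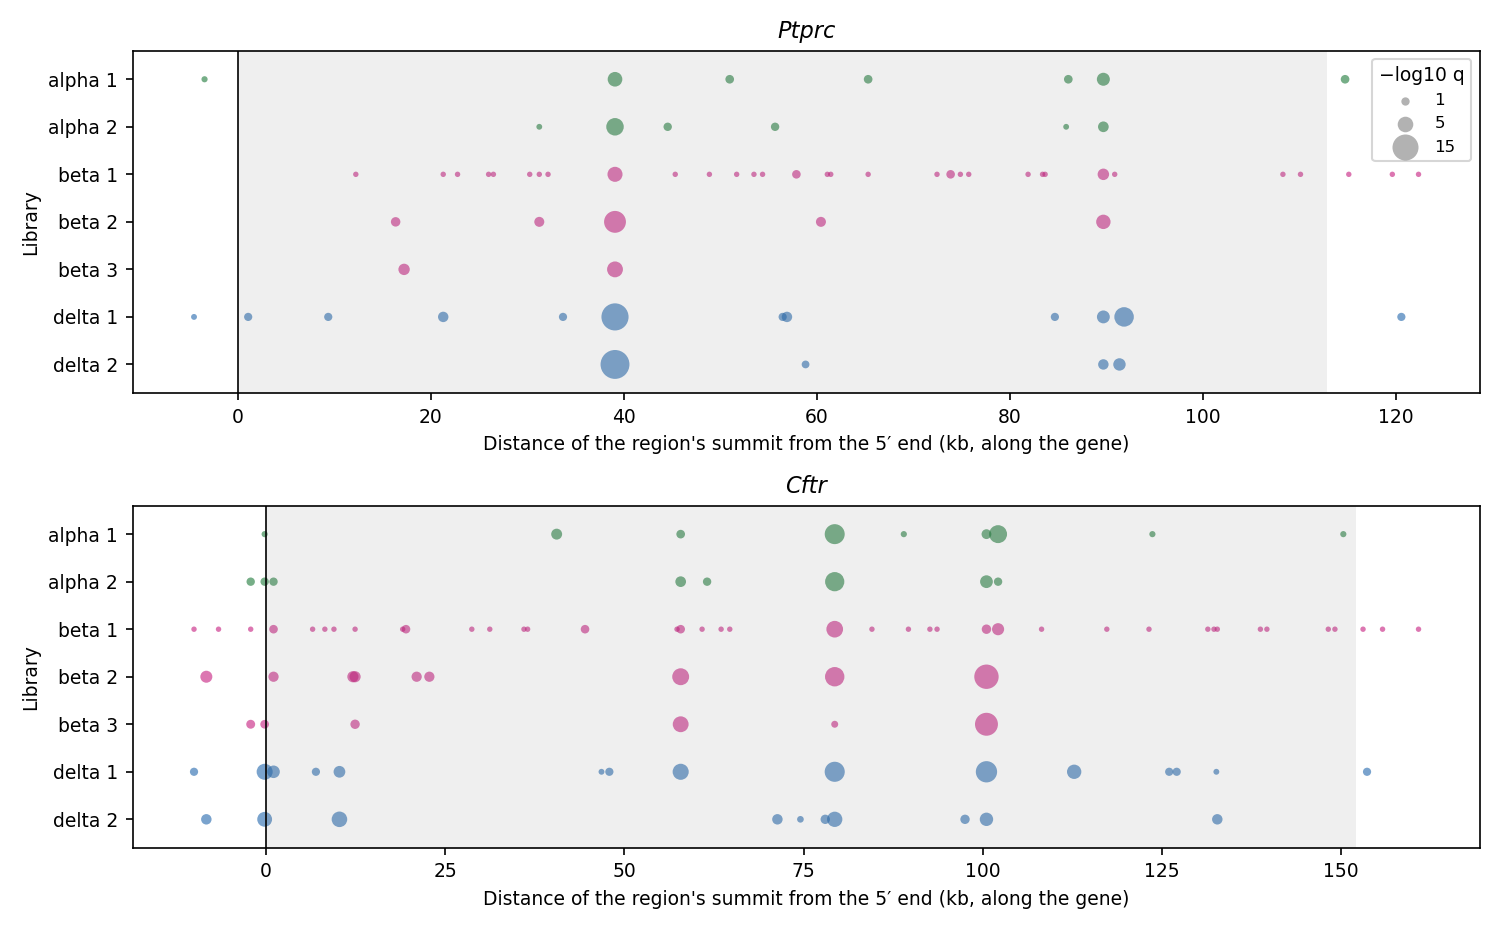
Position of each region with a peak along Ptprc (top) and Cftr (bottom), as the distance of the region's summit from the 5′ end in kb (horizontal axis), for the 7 libraries (rows); the area of a point grows with −log10 q and grey marks the gene body. Points line up in all libraries at 39.1 kb in Ptprc and at 79.3 and 100.5 kb in Cftr, where beta 3 (79.3 kb) and alpha 1 and beta 1 (100.5 kb) stay below a −log10 q of 2, while the many small points of beta 1 line up with few others.

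Pecam1 (ENSMUSG00000020717.19, chromosome 11, 106654217 to 106750628, minus strand) encodes CD31, an adhesion protein at endothelial junctions. It had 17 and 5 window peaks in the alpha libraries, 22, 2, and 6 in the beta libraries, and 3 and 5 in the delta libraries. With the q threshold, alpha 1 had 6, both delta libraries had 2, and alpha 2 and all 3 beta libraries had none. The alpha replicates thus held the highest and the lowest count. In alpha 1 the strongest peak lay 67.5 kb inside the gene with a −log10 q of 10.9 and was called in no other library. The most widely called region was intronic, at 75.8 kb, in alpha 1, beta 2, delta 1, and delta 2. Its −log10 q was 7.99 and 6.87 in the delta libraries and below 2 in alpha 1 and beta 2. At the 5′ end, alpha 2 alone had a peak, with a −log10 q of 1.02.

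Cdh5 (ENSMUSG00000031871.9, chromosome 8, 104101625 to 104144511, plus strand) encodes VE-cadherin, which holds endothelial cells together. It had 4 window peaks in each of 5 libraries, 6 in alpha 2, and 15 in beta 1. No library had a peak at its 5′ end. With the threshold on q, 1 peak was left in alpha 1, alpha 2, beta 1, and beta 2, 2 in each delta library, and 3 in beta 3. The region 9.95 kb upstream of the gene, which held the CTCF letters, was called in all 7 libraries, with a −log10 q from 1.39 in alpha 1 to 5.69 in delta 1. Past the end of the gene, a region 1.97 kb downstream was called in 5 libraries.

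Kdr (ENSMUSG00000062960.10, chromosome 5, 75932827 to 75978458, minus strand), the main VEGF receptor of endothelium, had 3 and 0 window peaks in alpha, 22, 1, and 2 in beta, and 1 and 1 in delta libraries. By the stricter count its window held a single peak over the 7 libraries, as did that of Krt19. The peak of Kdr lay at the start of the gene in delta 1, with a −log10 q of 4.14 and a fold enrichment of 5.02. None of the 30 merged regions of Kdr was called in more than 1 library, and 22 of them came from beta 1. Delta 2, the replicate of delta 1, had no peak at this start.

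Krt19 (ENSMUSG00000020911.14, chromosome 11, 100140810 to 100148665, minus strand) had 0 and 1 window peaks in the alpha, 3, 0, and 2 in the beta, and 1 and 1 in the delta libraries. None of its 3 annotated starts had a peak in any library. The only region called in more than 1 library lay 1.63 kb upstream, in beta 3 with a −log10 q of 1.43 and in delta 2 with 3.21. Its density of window peaks, averaged over the libraries, was 4.10 per 100 kb, and 9.39% of all protein-coding genes had as low a density or lower.

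Cftr (ENSMUSG00000041301.15, chromosome 6, 18170687 to 18322768, plus strand) was the exception among the 10 genes. It was the only one with a TSS peak in all 7 libraries, as 41.5% of all protein-coding genes had. The −log10 q of this peak was 0.278 and 1.02 in the alpha libraries, 1.10, 1.82, and 1.15 in the beta libraries, and 5.32 and 4.47 in the delta libraries. Both delta values were above the other 5, an order that was not tested and not compared with other genes. By percentile within each list beta 1 stood highest, at 94.1 against 82.2 and 64.2 in the delta libraries. In beta 1, however, a −log10 q of 0.0774 can already reach a percentile of 84.6. The peaks fell at separate places. A region whose strongest summit lay 0.209 kb before the start was called in alpha 1, alpha 2, beta 3, delta 1, and delta 2, and a region 1.03 kb after it in alpha 2, beta 1, beta 2, and delta 1. The CpG-rich promoter printed above lies inside the first of these and holds 30 CpG in 280 bases.

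Within the window of Cftr, 5 regions were called in at least 4 libraries, more than in any other of the 10 genes. Its window was also the longest, at 172 kb, and Cd68 had 3 such regions in 21.9 kb. The region 79.3 kb inside the gene had a −log10 q of 8.59 and 7.91 in alpha, 5.80, 8.07, and 0.517 in beta, and 8.70 and 4.79 in delta libraries, so that beta 3 stood far below the rest. The region at 100.5 kb was strongest in beta 2 and beta 3, with 13.1 and 11.5, and weakest in beta 1 and alpha 1, with 1.45 and 1.62. In alpha 2, delta 1, and delta 2 it reached 3.15, 9.85, and 3.53. A region at 12.4 kb was called in the 3 beta libraries and in no other, with a −log10 q of 0.0774, 2.29, and 1.43. A region at 10.2 kb was called in both delta libraries and in no other, with 2.58 and 4.98. Over the whole window Cftr had 9 and 8 peaks in alpha, 40, 9, and 6 in beta, and 15 and 10 in delta libraries, and 3 and 3, 2, 6, and 2, and 7 and 4 with the threshold on q. The cell types overlapped in both counts.

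Col1a1 (ENSMUSG00000001506.10, chromosome 11, 94936224 to 94953042, plus strand) encodes the main chain of type I collagen. It had 5 and 5 window peaks in alpha, 2, 1, and 4 in beta, and 6 and 1 in delta libraries, and was the only gene of the 10 with fewer peaks in beta 1 than in both alpha libraries. TSS peaks were found in alpha 1, alpha 2, and delta 1, with a −log10 q of 1.13, 1.02, and 0.951, at summits 0.428 kb after, 0.679 kb before, and 0.956 kb after the 5′ end. A region 7.29 kb upstream was called in both alpha and both delta libraries and in no beta library. Its −log10 q was 2.16 and 3.15 in alpha and 0.199 and 3.21 in delta libraries.

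Pdgfrb (ENSMUSG00000024620.11, chromosome 18, plus strand), the PDGF receptor of pericytes, had 3 and 3 window peaks in alpha, 10, 7, and 6 in beta, and 3 and 1 in delta libraries. The 3 beta libraries lay above the other 4 in this count. Per 100000 intervals of the list the order was lost, since beta 1 had 1.93 against 2.29 and 2.68 in alpha 1 and alpha 2. The means on this scale were 2.48 ± 0.277 (SD, n = 2) in alpha, 5.13 ± 2.93 (SD, n = 3) in beta, and 1.61 ± 0.410 (SD, n = 2) in delta cells, with an exact permutation p of 0.162 and a Benjamini-Hochberg adjusted value of 1. With the threshold on q, 1 peak was left in alpha 1, beta 2, delta 1, and delta 2 and none in the others. A TSS peak was listed in 5 libraries and passed this threshold in delta 2, with a −log10 q of 3.21. Its window overlaps that of Csf1r, and 1 peak was counted in both.

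**Figure D3:**
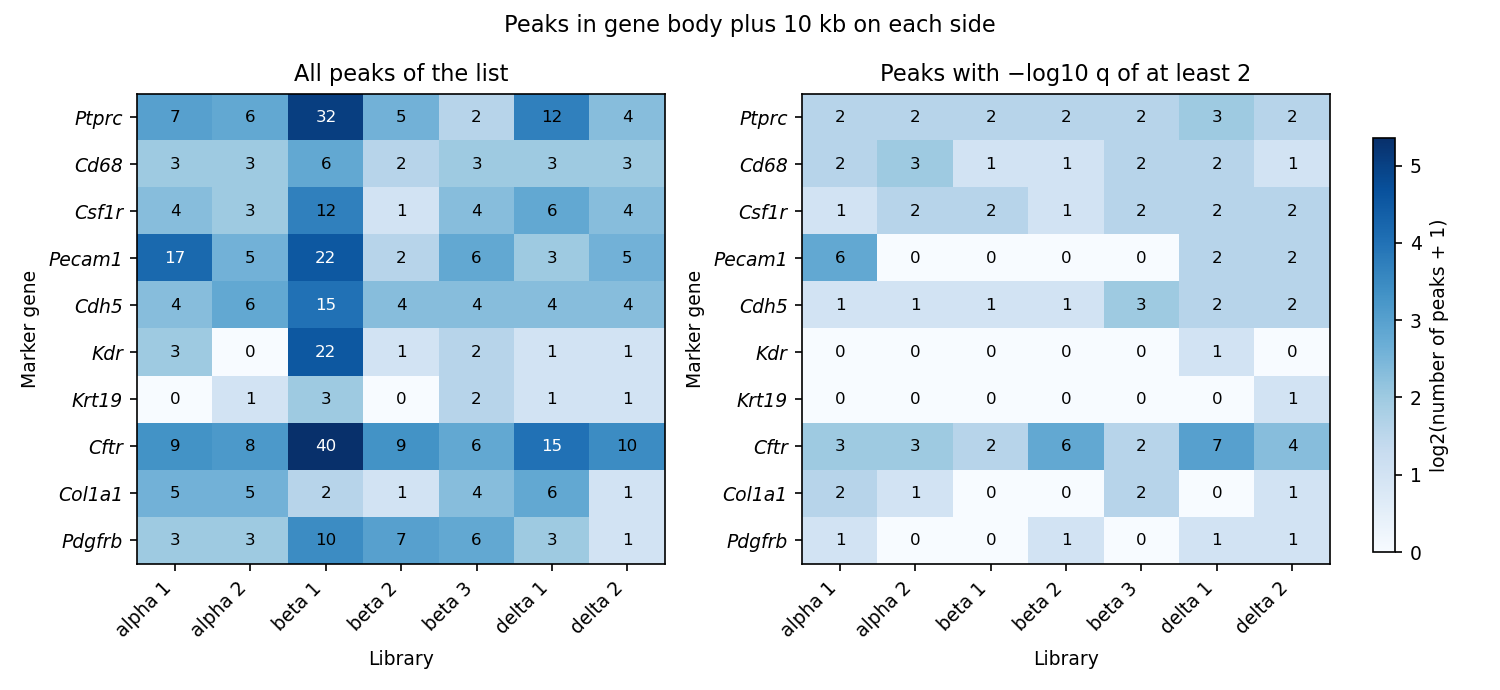
Number of peaks in the gene body plus 10 kb on each side for the 10 marker genes (rows) in the 7 libraries (columns), from the whole lists (left) and at or above a −log10 q of 2 (right); shading gives log2 of the number plus 1. Beta 1 has the most peaks at 9 of the 10 genes on the left and does not stand out on the right.

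To compare cell types over the whole set, each peak was counted once. The windows of the 10 genes held 55 and 40 peaks in the alpha libraries, 163, 32, and 39 in the beta libraries, and 54 and 34 in the delta libraries. The alpha mean was 47.5 ± 10.6 (SD, n = 2), the beta mean 78.0 ± 73.7 (SD, n = 3), and the delta mean 44.0 ± 14.1 (SD, n = 2). The cell types overlapped, and without beta 1 the beta mean was 35.5. Past the threshold on q the libraries held 18 and 12, 8, 12, and 13, and 20 and 16 peaks, with means of 15 ± 4.24, 11 ± 2.65, and 18 ± 2.83. Both delta libraries then lay above the 3 beta libraries. At this threshold the delta lists were also longer, with 41683 and 47042 peaks against 25903 to 38058 in the beta lists, and the part of list length in this order was not tested. Among the 50000 peaks of lowest p of each list the counts were 17 and 12, 13, 17, and 17, and 23 and 18.

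Each gene was then tested for a difference between the 3 cell types in window peaks per 100000 intervals of the list, with an exact permutation test over all 210 ways of dividing the libraries into groups of 2, 3, and 2. None of the 10 genes reached an unadjusted p of 0.05, a level that 4.34% of the 21926 genes tested reached. The lowest exact permutation p among the 10 was 0.162, for Pdgfrb, and that of Cftr was 0.190. None of the 10 passed with the peaks past the threshold on q either, where 7.38% of 19261 genes did. After Benjamini-Hochberg adjustment no gene in the genome passed in either case. The smallest exact permutation p of this design is 0.00952, and too few genes had low values for any to pass. A pair of cell types cannot reach 0.05 by itself, as the smallest p is 0.1 for alpha or delta against beta cells and 0.333 for alpha against delta cells.

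Per 100 kb of window, the 10 genes had a median of 1.93 peaks past the threshold on q, averaged over the libraries, and all protein-coding genes had a median of 2.58. Cd68 and Csf1r, at 7.81 and 3.33, lay above the median of all genes and the other 8 below it. At least 1 such peak was found in every library at 5 of the 10 genes (Ptprc, Cd68, Csf1r, Cdh5, and Cftr), compared with 49.2% of all genes. Kdr was lowest, at 0.218. With the whole lists the 10 genes had a median of 7.96 and all genes 7.56.

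After peaks that overlap between libraries had been merged, the windows held 295 regions, of which 249 (84.4%) were called in 1 library only. Of these, 133 came from beta 1. The remaining 46 regions, or 15.6%, were called in at least 2 libraries, against 16.0% of all 834695 merged regions. Only 7 (2.37%) were called in all 7 libraries, against 2.13% of all regions. They were the intronic region of Ptprc, the starts of Eif4a1 and Mpdu1 near Cd68, the regions upstream of Csf1r and Cdh5, and 2 intronic regions of Cftr. None lay at the start of a marker gene, and 2 lay at the starts of other genes.

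The 10 genes were set beside longer marker lists, counted by TSS peaks that reach a −log10 q of 2 in at least 2 replicates. The immune, endothelial, duct, and mesenchymal lists include the 10 genes. Of 25 immune genes, alpha cells had 3 open, beta cells 1, and delta cells 2. Of 21 endothelial genes, alpha and delta cells each had 1 open and beta cells none, and of 17 mesenchymal genes 1 was open in alpha and none in beta or delta cells. These shares of 0% to 12% lay below those of all genes, which were 41.4% to 51.5%. The lists also differ in the CpG content of their starts, as given below, and its part in the shares was not tested. The acinar list had 1, 0, and 1 of 10. Duct genes stood higher, with 6, 4, and 8 of 17 open in alpha, beta, and delta cells, and genes shared by endocrine cells had 16, 14, and 17 of 19. Without the 10 genes the duct counts were 6, 4, and 7 of 15. The immune, endothelial, and mesenchymal lists, then of 22, 18, and 15 genes, kept the same numbers of open genes. Of the lists for single endocrine cell types, the alpha list had 6, 3, and 4 of 6 open in alpha, beta, and delta cells, the beta list 3, 4, and 4 of 8, and the delta list 4, 0, and 4 of 5.

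**Figure D4:**
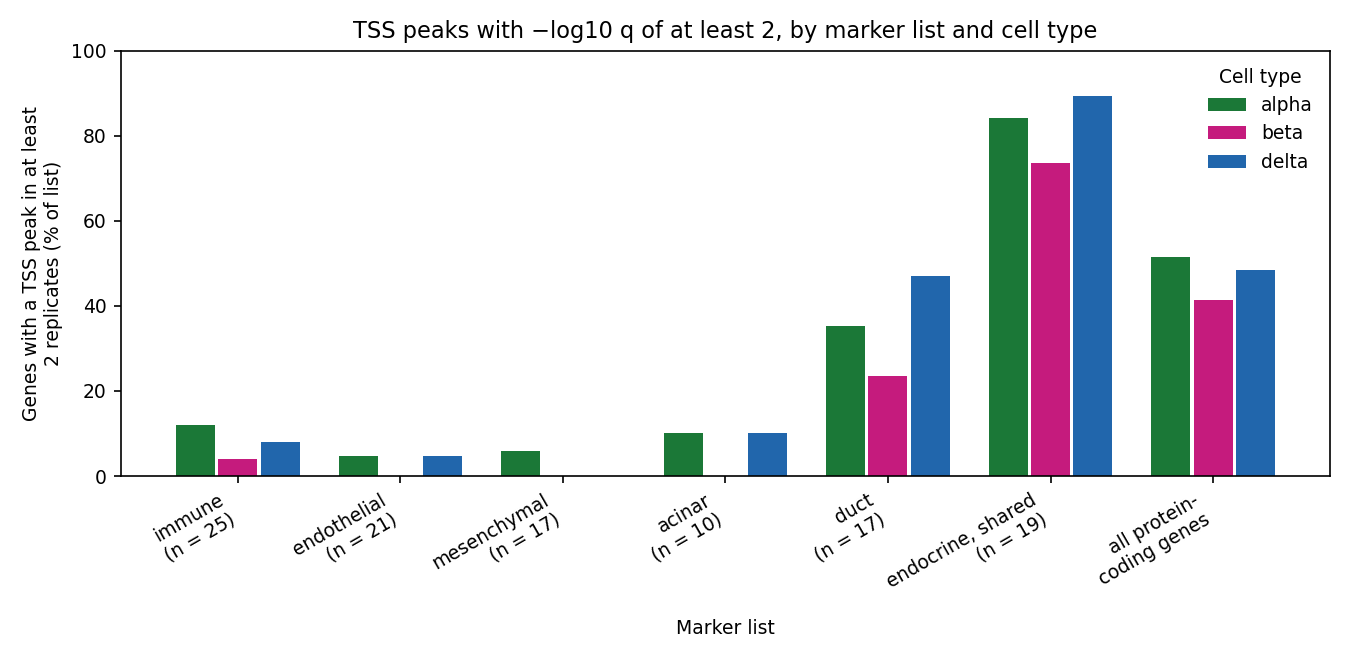
Share of the genes of each marker list shown, in percent, that had a TSS peak past a −log10 q of 2 in at least 2 replicates of alpha, beta, or delta cells (bars), beside all protein-coding genes at the right; n is the number of genes in the list. The immune, endothelial, and mesenchymal bars stay at or below 12%, the duct bars reach 47.1%, and the shared endocrine bars lie between 73.7% and 89.5%.

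A few immune genes did not follow their list. Lcp1, which encodes the actin-bundling protein L-plastin of white blood cells, had a TSS peak in all 7 libraries with a −log10 q of 2.57 to 19.6, at a start that it shares with Lrrc63. C1qa, a complement gene of macrophages, had one in all 7 libraries as well, with 1.10 to 8.70. Cd14, a receptor for bacterial lipopolysaccharide on monocytes and macrophages, had a TSS peak in alpha 1, alpha 2, and delta 1, with a −log10 q of 5.77, 2.03, and 0.951, and none in the other 4 libraries. It passed 2 in alpha libraries alone, and this difference between cell types was not tested. C1qb, a gene related to C1qa, had a TSS peak in 2 libraries and C1qc in 1, none with a −log10 q of 2. No endothelial or mesenchymal gene had a TSS peak in all 7 libraries. Past a −log10 q of 2, 7 of 21 endothelial and 4 of 17 mesenchymal genes had one in at least 1 library. Over all protein-coding genes the share without such a peak in any library was 38.1%, so that most genes had one. The strongest of these peaks was that of endothelial Esam in alpha 2, with 8.76, and Esam also passed 2 in both delta libraries. Endothelial Cldn5 passed it in alpha 1, alpha 2, and delta 1, and endothelial Flt1 in beta 3 alone, with 6.62.

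Among duct genes, Epcam, Pkhd1, and Bicc1 were open at the start in every library, the weakest at a −log10 q of 5.01. Epcam encodes an adhesion protein of many epithelia, islet cells included, and Pkhd1 and Bicc1 are known from cystic kidney disease. Of the 17 duct genes, 6 had a TSS peak in all 7 libraries, Cftr among them, and 2 had none in any library, Krt19 among them. In the whole lists the 2 duct markers thus stood at opposite ends. Past a −log10 q of 2, Cftr had a TSS peak in 2 libraries, and 7 of the 17 duct genes had one in more. The start of acinar Bhlha15, the secretory cell transcription factor Mist1, was likewise called in every library, in 5 of them with a −log10 q of 2 or more.

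Genes shared by endocrine cells are given for scale, and the 3 named first were chosen because their starts ranked high in every library. Scg5, a secretory granule gene, had a −log10 q at its start of 35.0 and 42.2 in the alpha libraries, 10, 15.6, and 24.1 in the beta libraries, and 31.2 and 37.6 in the delta libraries. Neurod1, which starts within 1 kb of Cerkl, and Isl1, both transcription factors of endocrine cells, were called at the start in every library, the weakest at a −log10 q of 6.83 and 14.2. Some other genes of the list were weak. Chga, which encodes the granule protein chromogranin A, passed a −log10 q of 2 in delta 1 alone, and the transcription factor gene Myt1 passed it in no library. The strongest TSS peak of any of the 10 marker genes was that of Cftr in delta 1, at 5.32. The hormone genes followed the labels only in part. The start of Gcg was called past a −log10 q of 2 in both alpha libraries and in delta 2, that of Ins1 in beta 1, beta 3, and delta 1, and that of Sst in beta 1 alone, while both delta libraries had a weaker one. At the 5′ end of Ins2, far upstream of the insulin transcript, beta 3 alone had a peak.

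The starts of the marker genes were also compared with others in sequence. CpG dinucleotides in the 2 kb around the 5′ end (GRCm38) were counted and divided by the number expected from the C and G content. This ratio was 0.272 in the median of the 10 genes and 0.474 in that of all protein-coding genes. It was below 0.4, a limit set after the values were seen, in 8 of the 10 genes and in 43.3% of all genes. Of these 8, 7 had no TSS peak past a −log10 q of 2 in any library, and among all genes below the limit the share was 77.6%. Above the limit it was 7.94% of all genes and neither of the 2 marker genes, Kdr at 0.594 and Cftr at 0.577. With the whole lists, 3 of the 8 genes below the limit had no TSS peak in any library, and 37.2% of all genes below it had none. Of the immune, endothelial, mesenchymal, and duct lists, 92%, 61.9%, 76.5%, and 52.9% of the genes lay below the limit. Of the shared endocrine list 10.5% did. Among the genes below it, 91.3%, 92.3%, 76.9%, and 33.3% of the first 4 lists had no TSS peak past a −log10 q of 2. The share over all genes below it was 77.6%.

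**Figure D5:**
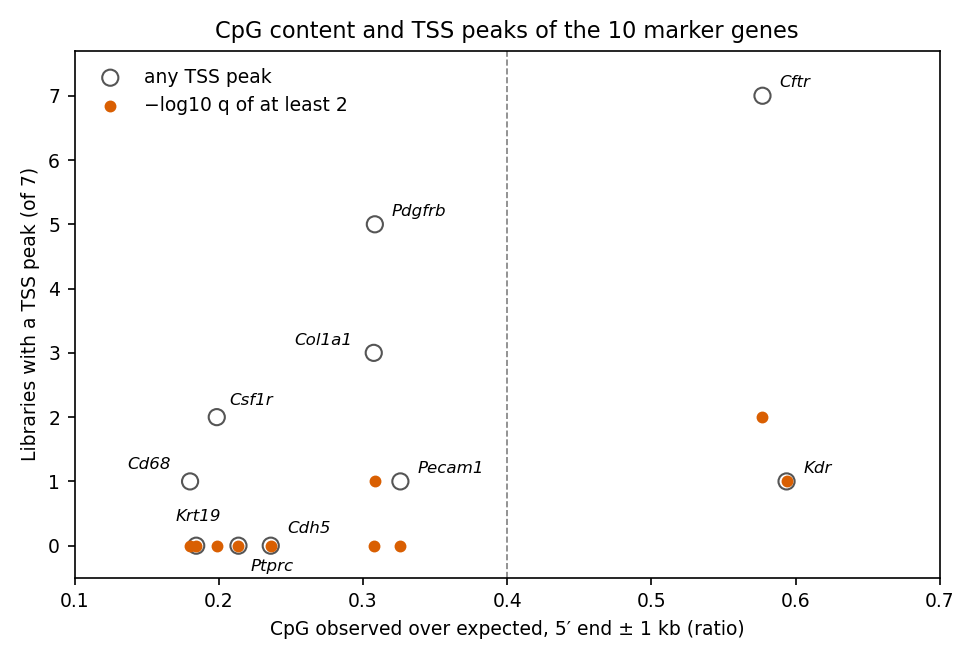
Number of the 7 libraries with a TSS peak (vertical axis) against the CpG ratio of the 2 kb around the 5′ end (horizontal axis) for the 10 marker genes, with any TSS peak as open circles and those that reach a −log10 q of 2 as filled points. Cftr and Kdr lie right of the dashed line at 0.4, and of the 8 genes left of it Pdgfrb alone has a filled point above 0.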

How the data were processed

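Single-end ATAC-Seq reads had been processed by the authors with Trimmomatic, Bowtie2 (GRCm38, mm10, mitochondrial sequence excluded), and Picard, and peaks outside blacklisted DNA were called per library in MACS2. Tool versions were not given in the sources used here. The deposited lists hold, per peak, the −log10 p and −log10 q values, the fold enrichment at the summit (a ratio to the local background), a score of 10 times the −log10 p, and the summit. A weak or absent peak depends on sequencing depth. Peak lists do not hold it, and the read totals that the study tabulates, which differ between libraries, were not used here, so no detection limit was computed. The study tested read counts with DiffBind, which could not be repeated on peak lists. The exact permutation test was used in its place.

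Rows repeating an interval were counted once. Gene bodies were taken from GENCODE vM21 (GRCm38), with 10 kb flanks, and TSS peaks overlap the 1 kb on either side of the gene record's 5′ end. Mitochondrial genes were left out, and the 21926 genes with a window peak were tested. Simulated lists with 8-fold more window peaks in 1 cell type were tested at an unadjusted exact permutation p of 0.05. The test called 31 of 67 changed genes for alpha, 67 of 67 for beta, and 35 of 66 for delta. No gene passed Benjamini-Hochberg adjustment in the deposited lists, so these calls do not describe the power of the adjusted test. Merging was checked with bedtools 2.31.1 (0 regions differed). The tools were Python 3.11.15, pandas 2.3.3, numpy 2.4.6, scipy 1.17.1, and matplotlib 3.10.9.

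The 10 genes, the marker lists, and the tests were chosen with earlier results of these data known. Other genes are named if they start inside a window and have a TSS peak in at least 4 libraries, if they are among the 3 genes of a marker list with a TSS peak in all 7 libraries and the highest lowest rank, or if they are Gcg, Ins1, Ins2, or Sst. C1qb, C1qc, Cd14, Cerkl, Chga, Cldn5, Esam, Flt1, Lrrc63, and Myt1 were named after their values were seen. Not every gene that the rule admits is described, and the results of 1 further marker list are not reported here. Promoters were matched by symbol in RefSeq for 4 of the 10 genes. Alternatives were peak thresholds, flanks, TSS definitions, overlap, a scale of covered base pairs, the replicate block, and leaving out libraries in turn.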

Additional observations from a re-analysis of the deposited data

How the results depend on the processing

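Past a −log10 q of 2, alpha, beta, and delta cells had a mean of 15, 11, and 18 window peaks, and with the 50000 peaks of lowest p it was 14.5, 15.7, and 20.5. At either setting, 0, 0, and 1 genes had a TSS peak in at least 2 replicates, where 3, 1, and 2 were reported. Without flanks the alpha mean was 31.0, and with 50 kb flanks the means were 85.0, 151.0, and 77.0. A TSS window of 3 kb gave 2 genes in beta cells (Cdh5 and Cftr), and any transcript start gave 2 in beta (Ptprc and Cftr) and 4 in delta cells (Ptprc, Csf1r, Cftr, and Pdgfrb). With each library left out in turn the means ranged from 40.0 to 55.0 for alpha, 35.5 to 101.0 for beta, and 34.0 to 54.0 for delta, and the TSS counts from 3 to 4, 1 to 1, and 2 to 5. The lowest beta mean is that without beta 1, and the highest delta count that without delta 2, where a single list stands for the cell type.

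In the test between cell types 0 of the 10 genes were called under every setting except covered base pairs, where 1 was, Csf1r (exact permutation p = 0.0381, against 0.257 as reported), and 5.58% of all genes were called at that setting, none after adjustment. With the replicate block 0 were called, but the smallest exact permutation p is then 0.0556. Same-numbered libraries deviated together with correlations of -0.0262 to 0.379 over genes, and not all pairs exceeded 0.1. In a group of 2 libraries the deviations from the mean mirror each other, so these correlations cannot decide whether libraries are paired. The numbers were not treated as pairs. The study's methods state that cell types were taken from shared animals without naming the libraries that share them, and the test treats all 7 as separate. Without a beta replicate the smallest exact permutation p is 0.0667, so the count of 0 there carries no information. A call depends on depth and list length, which differ between libraries. Groups of 2 and 3 libraries are too small for a test of single outlying libraries.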
